A study of Mus musculus with 40 samples.

Results

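Histone H3 lysine 27 acetylation (H3K27ac) was examined over 9 genes of the contractile apparatus in mouse cells that were turned from preadipocytes into brown-like adipocytes. The genes were *Acta2*, *Tagln*, *Cnn1*, *Cnn2*, *Tpm1*, *Tpm2*, *Myl9*, *Actn1* and *Srf*. They were chosen by name, with earlier results of these data known. Each was measured over its annotated span plus 5 kb upstream (mm10, GENCODE). All 9 held a peak in at least 3 of the 24 libraries, as did 15183 of the 21911 protein-coding genes. Preadipocytes came from inguinal white fat of C57BL/6 wild-type (WT) mice and of mice that lack both nucleosome-binding proteins HMGN1 and HMGN2 (Hmgn1-/- Hmgn2-/-, DKO). Cells were taken as preadipocytes at day 0, during differentiation at days 3 and 6, and as brown-like cells at day 9. Differentiation was induced with insulin, dexamethasone, IBMX, T3 and rosiglitazone, followed by maintenance with insulin and T3, and both genotypes received the same media. Each of the 8 groups held 3 libraries. The labels do not say whether these came from separate mice or cultures, so p-values measure only the spread between libraries.

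H3K27ac marks active promoters and enhancers. Smooth muscle actin (*Acta2*), transgelin (*Tagln*) and calponin (*Cnn1*) are the classical marks of smooth muscle cells and of myofibroblasts, which build stress fibres and pull on their matrix. Their genes are known targets of serum response factor (*Srf*), which binds the CArG box together with myocardin or, when RhoA and ROCK have shifted actin from monomers to filaments, with the myocardin-related cofactors. Cultured preadipocytes carry stress fibres, and adipocyte differentiation is known to go with loss of them.

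The lists held 47448 to 115923 peaks per library (median 96352) over 20.7 to 96.4 Mb. Sequencing depth is unknown, since the lists give no read totals. The DKO day 0 replicate 2 list stood apart by its wide peaks (96.4 Mb, median width 1076 bp), WT day 3 replicate 3 by its highest fold of 159, and DKO day 6 replicate 3 by the fewest peaks (47448). *Hmgn2* was without a peak in all 12 DKO libraries and covered for 0.781 to 1.8 kb in the 12 WT libraries. *Hmgn1* was covered in both genotypes, by 1.16 to 2.19 kb of peaks in the WT libraries and 0.875 to 3.57 kb in the DKO libraries. The 5 adipocyte markers summed to 4.34 to 5.13 kb in WT day 0 libraries and to 44.7 to 45.8 kb on day 6. Markers of other cells a fat digest can hold were also measured. The 7 mural cell markers covered 18.7 to 22.6 kb at WT day 0, 11.1 to 17.9 kb on day 3, 18.1 to 19.7 kb on day 6 and 20.3 to 25.6 kb on day 9. In DKO cells the mural sum was 16.4 to 36.5 kb at first, 8.25 to 11.1 kb on day 3, 3.03 to 9.93 kb on day 6 and 24.8 to 29 kb on day 9. The 5 endothelial markers went from 6.65 to 7.27 kb in WT preadipocytes to 1.99 to 4.77, 4.02 to 4.27 and 2.69 to 4.32 kb at the later days, and in DKO cells from 7.36 to 16.1 kb to 2.28 to 3.13, 1.17 to 2.38 and 4.11 to 5.72 kb. The 6 preadipocyte markers held 15.5 to 25.7 kb across the WT libraries, and in DKO cells 19 to 29.1, 14.3 to 18.8, 9.58 to 12.8 and 20.2 to 23.5 kb by day. The 5 immune markers, of which *Cd3e* was at 0 in every group, covered 18.5 to 20.4 kb at WT day 0 and 6.12 to 7.88 kb on day 9. Mural, endothelial and preadipocyte markers thus had their lowest sums at days 3 and 6 in DKO cells, as the contractile genes did. The DKO total over all genes tested was low at the same days, averaging 58.1, 31.7, 29.3 and 55.8 Mb by day. DKO immune sums were 22.3 to 45.2, 12.8 to 18.7, 4.88 to 9.88 and 8.86 to 10.3 kb by day, and stayed low at day 9. WT mural markers at day 6 were close to day 0. The part of these cell types in the results was not tested. Of the 4 skeletal muscle markers, *Myod1* and *Myog* were without a peak in every group, and the list summed to 1.24 to 3.52 kb.

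Summed over the contractile genes, H3K27ac covered the most kb in preadipocytes and the fewest at days 3 and 6, and part of the coverage was regained in brown-like cells. *Actn1* and *Tpm1* make up the largest parts of this sum, and not each gene followed it: *Srf* averaged 4.12 kb in WT cells at day 0, 3.23 kb at day 3 and 4.35 kb at day 9. Summed over the 9 genes, peaks covered 54.8 ± 4.56 kb in WT cells at day 0 (SD, n = 3 here and below), 22.7 ± 5.64 kb on day 3, 23.5 ± 2.67 kb on day 6 and 36.1 ± 4.37 kb on day 9. DKO cells went from 66 ± 25.1 kb through 19.8 ± 2.77 and 12.9 ± 4.78 kb to 38.5 ± 3.47 kb. Both genotypes thus showed a trough at days 3 and 6. In WT cells the total under peaks over all genes tested took another course, with 44.2, 38.9, 49.5 and 47.9 Mb on average at days 0, 3, 6 and 9. In DKO cells this total had a trough at the same days as the 9 genes, going from 58.1 to 31.7, 29.3 and 55.8 Mb. Because lists with more peak area give every gene more kb, the sums were also expressed per 100 Mb under peaks. On that scale the WT sum was 108 ± 2.04 kb on day 0, 51.2 ± 1.77 on day 3, 40.8 ± 2.84 on day 6 and 65.2 ± 2.66 on day 9. The DKO sum was 98.1 ± 2.76, 56.8 ± 3.48, 41.1 ± 4.83 and 59.6 ± 1.79 kb, so that the trough was present on both scales while the genotypes at day 6 were closer on the second. In a mixed culture, fewer cells carrying the mark and less mark per cell cannot be told apart.

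**Figure D1:**
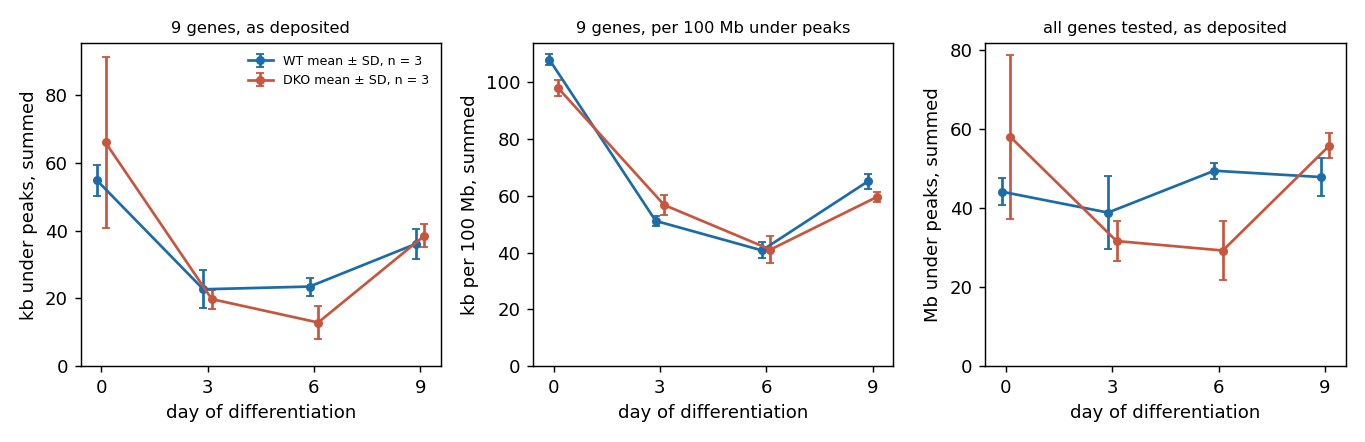
Summed peak coverage by day (x axis) in WT (blue) and DKO (red) cells, as mean ± SD of 3 libraries. The 9 genes are shown in kb (left) and in kb per 100 Mb under peaks (middle), and all genes tested in Mb (right). The 9-gene sums are lowest at days 3 and 6 in both genotypes, with 40.8 and 41.1 kb per 100 Mb at day 6.

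*Acta2* (chr19:34241090-34255590, minus strand, mm10 here and below) encodes smooth muscle α-actin, the thin filament of the contractile apparatus. Its peaks covered 3.76, 5.18 and 3.77 kb in the WT libraries at day 0, 1.59, 1.52 and 0.689 kb on day 3, 0.989, 1.08 and 1.09 kb on day 6, and 1.33, 2.48 and 2.5 kb on day 9. In DKO cells the values were 4.01, 8.52 and 5.5 kb on day 0, 0.831, 1.06 and 1.15 kb on day 3, 0.208, 0.602 and 0.182 kb on day 6, and 2.32, 2.77 and 2.17 kb on day 9. Every day 0 library lay above every library of the later days, and the DKO day 6 libraries lay lowest of all.

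*Tagln* (chr9:45929619-45936058, minus strand) encodes transgelin, an actin-bundling protein of smooth muscle. It was covered for 2.92, 3.31 and 3.38 kb at WT day 0 and for 0.596, 0.877 and 0.389 kb on day 3. WT libraries held 1.01, 0.748 and 0.866 kb on day 6 and 1.06, 2.1 and 1.64 kb on day 9. The DKO course was alike in shape, with 2.3, 5.13 and 2.22 kb on day 0, 0.555, 0.972 and 1.07 kb on day 3, 0.658, 0.56 and 0 kb on day 6, and 2.81, 1.45 and 1.43 kb on day 9. Its window also meets the coding genes *Pcsk7* and *Sidt2*, whose acetylation cannot be told apart from that of *Tagln*.

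*Cnn1* (chr9:22099216-22109630, plus strand) and *Cnn2* (chr10:79988584-79996062, plus strand) encode calponins, which bind actin and hold back myosin. *Cnn1*, the smooth muscle form, had little H3K27ac, with 0.491, 0.458 and 0.287 kb at WT day 0 and 0.548, 1.11 and 0.372 kb at DKO day 0. No later library exceeded 0.286 kb, and 7 of them held no peak in the window. The *Cnn1* peaks of later days all lay in a region upstream of the gene, with the strongest summit at -3208 bp. *Cnn2*, the form found in many tissues, covered 6.41, 6.92 and 6.35 kb at WT day 0, 4.08, 4.94 and 3.26 kb on day 3, 3.81, 4.32 and 4.52 kb on day 6 and 5.71, 6.48 and 6.13 kb on day 9. DKO cells held 7.23, 9.25 and 7.08 kb of *Cnn2* coverage at day 0, 3.98, 4.22 and 4.36 kb on day 3, 3.63, 3.53 and 2.06 kb on day 6 and 6.53, 6.16 and 6.4 kb on day 9. The *Cnn2* means at day 3 were nearer to those at day 0 than the *Acta2* means were, as shares of the day 0 mean. The *Cnn2* window shares its upstream region with *Tmem259*, and the strongest summit lay at -3200 bp from the *Cnn2* start. Acetylation of *Cnn2* and of *Tmem259* cannot be told apart there.

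*Tpm1* (chr9:67022590-67049406, minus strand) and *Tpm2* (chr4:43514711-43523765, minus strand) encode tropomyosins, which lie along the actin filament and set access for myosin. *Tpm1* went from 9.61, 10.6 and 9.88 kb at WT day 0 to 4.12, 4.54 and 2.61 kb on day 3, 4.28, 3.94 and 4.68 kb on day 6 and 5.7, 7.74 and 5.89 kb on day 9. In DKO cells it covered 9.14, 14.6 and 10.3 kb, then 3.04, 3.44 and 4.02 kb, then 2.6, 3.52 and 1.13 kb, and at day 9 it covered 7.67, 6.51 and 7.1 kb. *Tpm2* had no peak in several libraries of days 3 and 6. It held 2.79, 3.25 and 3.46 kb at WT day 0 and 1.82, 3.16 and 2.08 kb at DKO day 0. At day 3 it held 0.616, 0.449 and 0 kb in WT and 0, 0.465 and 0 kb in DKO cells. Day 6 was similar, with 0, 0.622 and 0.852 kb in WT and 0, 0.336 and 0 kb in DKO libraries. By day 9 all 6 libraries again had *Tpm2* peaks, over 2, 1.34 and 1.79 kb in WT and 1.84, 1.83 and 1.82 kb in DKO cells.

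*Myl9* (chr2:156775420-156781658, plus strand) encodes the regulatory light chain of smooth muscle and non-muscle myosin II, whose phosphorylation starts contraction. It covered 2.16, 2.18 and 2.09 kb at WT day 0, 0.439, 0.577 and 0.65 kb on day 3, 0.173, 0.659 and 0.55 kb on day 6 and 0.97, 0.993 and 1.01 kb on day 9. DKO libraries held 2.38, 3.35 and 2.64 kb on day 0, 0, 0.578 and 0 kb on day 3, 0.499, 0.164 and 0 kb on day 6 and 1.88, 1.42 and 1.62 kb on day 9. The DKO day 9 libraries all lay above the WT ones. The difference did not pass the threshold in the limma fit described below (log2 0.51 ± 0.26 SE, adjusted p = 0.433). The DKO day 9 lists also covered more in all, 61.2 to 68.8 Mb against 48.2 to 59.6 Mb. *Actn1*, encoding the α-actinin that cross-links filaments in stress fibres and focal adhesions, spans 92.8 kb (chr12:80167547-80260371, minus strand). Its peaks covered 18.5, 23.2 and 21 kb at WT day 0, 9.6, 10.2 and 6.56 kb on day 3, 8.01, 7.93 and 10.3 kb on day 6 and 10.4, 14.4 and 13 kb on day 9. The DKO libraries covered 17.1, 43 and 21.5 kb of *Actn1* at day 0, 6.38, 8.49 and 6.26 kb on day 3, 5, 5.35 and 3.16 kb on day 6 and 15.2, 12.4 and 11.3 kb on day 9. The 43 kb belonged to the list with the wide peaks.

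*Srf* (chr17:46548329-46556175, minus strand) was the gene of the 9 whose libraries of days 0 and 3 overlapped in kb as deposited. It covered 4.04, 4.52 and 3.8 kb at WT day 0, 3.52, 3.91 and 2.26 kb on day 3, 3.26, 2.92 and 3.54 kb on day 6 and 4.17, 4.54 and 4.33 kb on day 9. DKO cells held 3.56, 6.63 and 3.51 kb, 1.93, 2.98 and 2.93 kb, 1.85, 2.5 and 1 kb, and 4.18, 4.32 and 4.11 kb on the same days. Day 0 and day 9 overlapped for *Srf* in both genotypes. Across the 24 libraries, which share their peak totals, the 36 pairs among the 9 genes correlated with Pearson r from 0.63 (*Cnn1* with *Tpm2*) to 0.974 (*Acta2* with *Actn1*), with a median of 0.88.

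**Figure D2:**
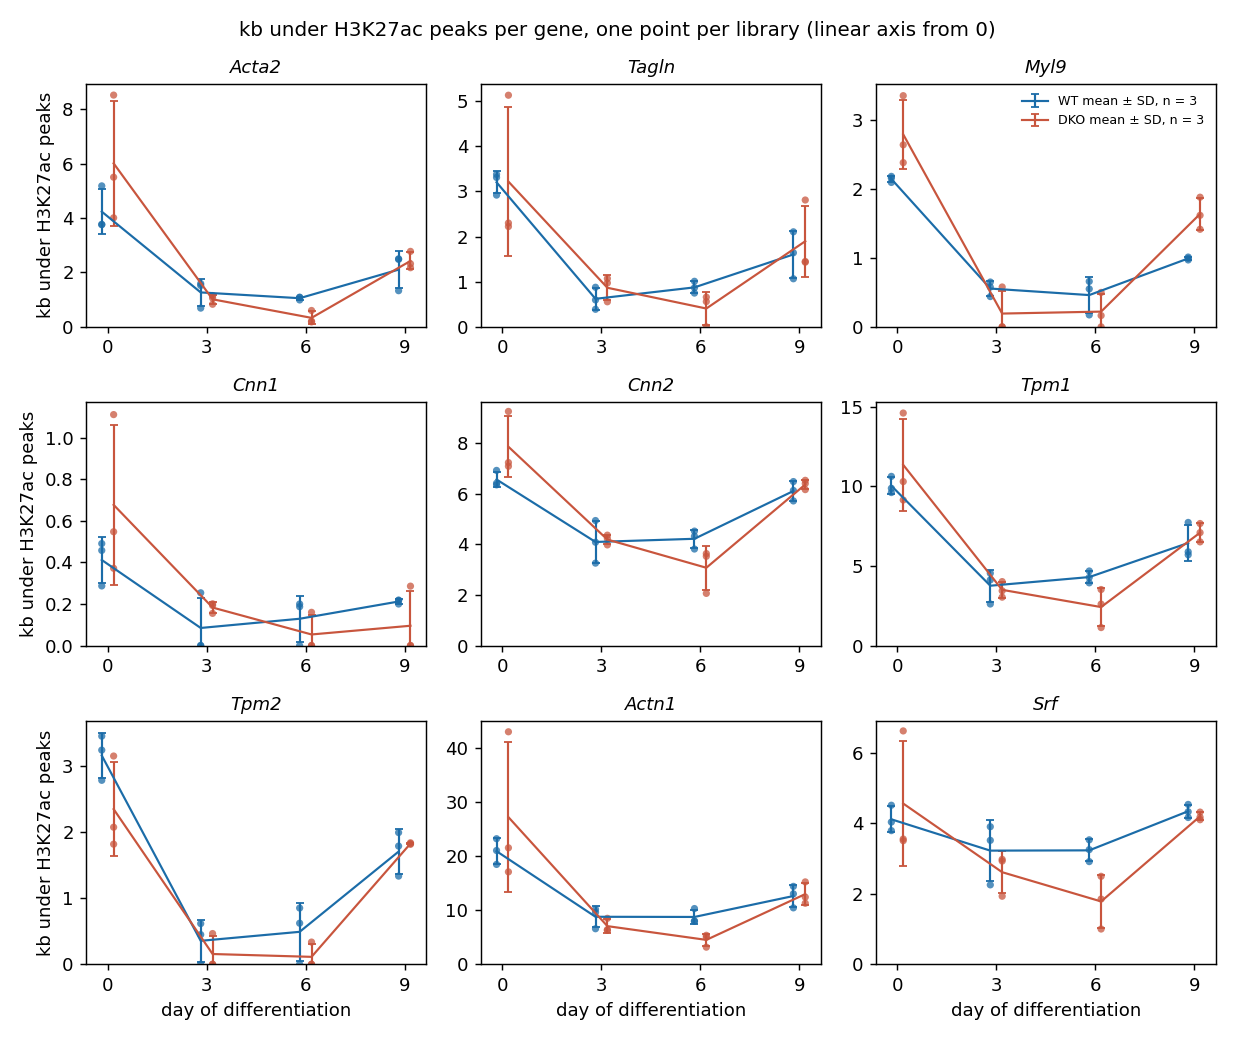
kb under H3K27ac peaks (y axis, linear from 0) by day for each gene, with 1 point per library and lines at the mean ± SD of 3 WT (blue) or 3 DKO (red) libraries. Coverage is highest at day 0 for most genes and returns in part at day 9, whereas *Srf* at day 9, with 4.17 to 4.54 kb in WT cells, overlaps its day 0 values of 3.8 to 4.52 kb.

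The first question was whether induction removed H3K27ac from these genes. The comparisons of neighbouring days, here and below, were added after values had been seen. All 6 day 0 libraries lay above all 6 day 3 libraries for 8 of 9 genes, all except *Srf*, against 17.2% of all genes tested. Those are kb as deposited, and per 100 Mb the libraries of *Cnn1* and *Cnn2* overlapped between these days as well. In limma fits across all genes on log2(kb + 0.5), with Benjamini-Hochberg adjustment, 8 of 9 genes fell between day 0 and day 3 in WT cells, where 10.7% of all genes were called lower. *Tpm2* fell by 2.17 ± 0.33 (log2 ± SE, adjusted p = 9.89e-05), *Tagln* by 1.74 ± 0.31 (adjusted p = 0.000438), *Acta2* by 1.45 ± 0.25 (adjusted p = 0.000407) and *Cnn1* by 0.66 ± 0.22 (adjusted p = 0.0491). The fitted change of *Srf* was -0.33 ± 0.23 (adjusted p = 0.419). The median over the 9 genes was -1.33 and over all genes -0.10. In DKO cells all 9 genes fell, where 50.6% of all genes were called lower. *Myl9* fell by 2.34 ± 0.26 (adjusted p = 6.81e-07), *Tpm2* by 2.17 ± 0.33 (adjusted p = 3.03e-05), *Acta2* by 2.05 ± 0.25 (adjusted p = 2.60e-06) and *Srf* by 0.67 ± 0.23 (adjusted p = 0.0221). The DKO median was -1.55 for the 9 genes and -0.48 for all genes. Scaling to 100 Mb moved the all-gene median to 0.11 in DKO and 0.04 in WT cells, and the 9-gene median then lay 0.92 below that of all genes in DKO and 1.23 below it in WT cells. On that scale 8 genes were called lower in WT and 5 in DKO cells, namely *Acta2*, *Myl9*, *Tpm1*, *Tpm2* and *Actn1*. Over all genes the DKO calls were 7684 lower and 210 higher, and per 100 Mb 2721 lower and 4119 higher. The WT calls were 1630 lower and 491 higher, and per 100 Mb 2114 and 1824. Without DKO day 0 replicate 2, 7 genes were called lower in DKO cells, all except *Cnn1* and *Srf*. Only 3 libraries per group allow no exact p below 0.1, and 8 genes reached it in WT cells and 9 in DKO cells.

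Between days 3 and 6 fewer of the genes passed the test. None of the 9 genes was called lower in WT cells, where 1.4% of all genes were (0 of the 9 had an unadjusted p under 0.05). In DKO cells *Acta2* alone was called lower, against 8.67% of all genes, and 6 of the 9 had an unadjusted p under 0.05. Per 100 Mb, 1 gene was called lower in WT and 5 in DKO cells.

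The next comparison was the return of H3K27ac between days 6 and 9. In kb as deposited, all 6 day 9 libraries lay above all 6 day 6 libraries for 8 of 9 genes, all except *Cnn1*, against 7.78% of all genes. Per 100 Mb the libraries of *Cnn2* and *Srf* overlapped between these days as well. In DKO cells the 8 genes other than *Cnn1* rose by limma, where 61.6% of all genes were called higher. *Tpm2* was higher by 1.97 ± 0.33 (adjusted p = 8.97e-05), *Acta2* by 1.85 ± 0.25 (adjusted p = 1.30e-05), *Myl9* by 1.62 ± 0.26 (adjusted p = 5.88e-05) and *Tagln* by 1.45 ± 0.31 (adjusted p = 0.000642). The *Cnn1* change was 0.08 ± 0.22 (adjusted p = 0.746). The median was 1.45 for the 9 genes and 0.57 for all genes. In WT cells no gene of the 9 was called, where 0.902% of all genes were called higher, and 5 of the 9 had an unadjusted p under 0.05. The WT values were 1.26 ± 0.33 for *Tpm2* (adjusted p = 0.0612), 0.71 ± 0.25 for *Acta2* (adjusted p = 0.243) and 0.38 ± 0.23 for *Srf* (adjusted p = 0.684), with a median of 0.52 for the 9 genes and -0.02 for all. Per 100 Mb, 5 of the 9 genes were called higher in WT cells and 6 in DKO cells, and the 9-gene median lay 0.59 (WT) and 0.69 (DKO) above the all-gene median. Over all genes, WT calls higher numbered 26 to 555 across the alternatives run, which include this scale. The calls over all genes in DKO cells were 13 lower and 9350 higher, and per 100 Mb 5222 and 2867. Among the 20000 strongest peaks of each list, 0 genes were called in WT and 3 in DKO cells.

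Brown-like cells did not regain the full preadipocyte level at some of the genes. All 6 day 0 libraries lay above all 6 day 9 libraries for 5 genes (*Acta2*, *Myl9*, *Cnn1*, *Tpm1* and *Actn1*), against 9.6% of all genes. In WT cells *Acta2* (-0.89 ± 0.25, adjusted p = 0.0133) and *Myl9* (-0.83 ± 0.26, adjusted p = 0.0245) were lower at day 9, where 8.84% of all genes were called lower. The WT count was unsteady. *Myl9* did not pass per 100 Mb (-1.05, adjusted p = 0.0639), where 4 genes were called, and 4 genes were called without WT day 3 replicate 3, 4 without DKO day 0 replicate 2 and 5 without DKO day 6 replicate 3. *Actn1* (-0.71 ± 0.26, adjusted p = 0.0549) and *Tagln* (-0.84 ± 0.31, adjusted p = 0.0515) missed the threshold. In DKO cells *Acta2* (-1.10 ± 0.25, adjusted p = 0.00179), *Cnn1* (-0.97 ± 0.22, adjusted p = 0.00165) and *Actn1* (-0.94 ± 0.26, adjusted p = 0.00845) were lower, where 14.1% of all genes were. Without DKO day 0 replicate 2, *Actn1* no longer passed (-0.56, adjusted p = 0.0607). *Srf* was at 0.07 ± 0.23 in WT and -0.05 ± 0.23 in DKO cells (adjusted p = 0.883 and 0.912). The medians were -0.71 (WT) and -0.62 (DKO) for the 9 genes and 0.09 and 0.01 for all genes. These changes share their day 0 libraries with those between days 0 and 3. The change from day 0 to day 9 did not pass a test of its difference between genotypes for any of the 9 genes, against 0.494% of all genes, and none had an unadjusted p under 0.05.

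**Figure D3:**
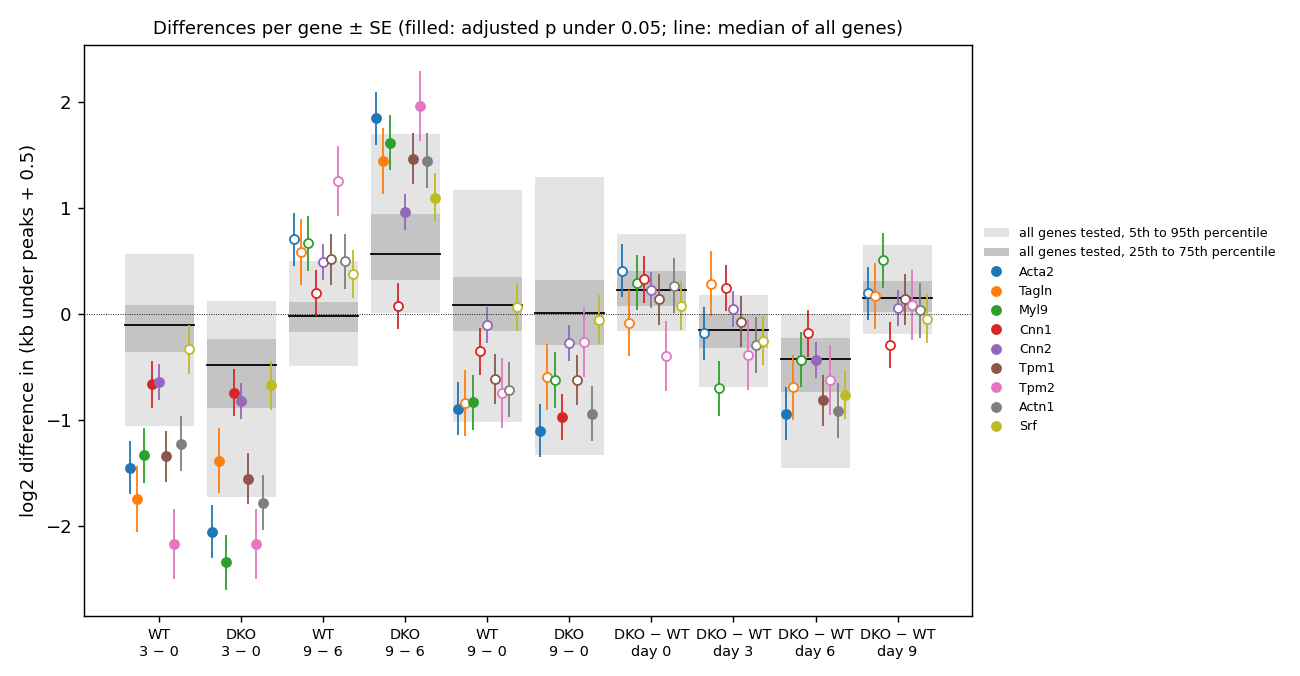
Fitted log2 differences in (kb + 0.5) per gene (points ± SE, filled where the adjusted p is under 0.05) for 6 comparisons of days and for DKO minus WT on each day, over the 5th to 95th (light) and 25th to 75th (dark) percentiles and the median (line) of all genes tested. In WT cells between days 0 and 3 most of the genes lie under the 5th percentile of all genes, with *Tpm2* lowest at -2.17, and the differences between genotypes lie mostly within the grey bands.

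The second question was whether loss of HMGN1 and HMGN2 altered the mark at these genes. Over all days together it did not pass the threshold at any of them. An exact permutation test of covered kb within days (two-sided, 160000 relabellings, smallest possible p = 1.25e-05) called 0 of 9 genes, against 0.151% of all genes. No gene of the 9 had an unadjusted p under 0.05, as 1498 of all genes did. The smallest was that of *Tpm2*, with 1.43 kb in WT and 1.11 kb in DKO cells averaged over days (exact p = 0.0658, adjusted p = 0.542). *Acta2* averaged 2.16 kb in WT and 2.44 kb in DKO cells (exact p = 0.607, adjusted p = 0.964). Day by day, limma called none of the 9 genes at day 0 (2.88% of all genes), day 3 (0.303%) or day 9 (1.86%). At these days 0, 1 (*Myl9*, day 3) and 0 genes had an unadjusted p under 0.05.

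Day 6 differed. DKO cells had less H3K27ac at 5 of the 9 genes, where 39.9% of all genes were called lower. *Acta2* was at 1.05 ± 0.056 kb in WT and 0.331 ± 0.235 kb in DKO cells (log2 difference -0.94 ± 0.25, adjusted p = 0.00728). *Actn1* lay between 7.93 and 10.3 kb in the WT libraries and between 3.16 and 5.35 kb in those of DKO cells (-0.91 ± 0.26, adjusted p = 0.0108). *Tpm1* (-0.81 ± 0.24, adjusted p = 0.0138), *Srf* (-0.76 ± 0.23, adjusted p = 0.0147) and *Cnn2* (-0.43 ± 0.17, adjusted p = 0.0437) were the others. The 9-gene median was -0.69 and the all-gene median -0.42. These calls moved with the DKO day 6 lists, which covered 20.7 to 36.3 Mb in all against 55.5 to 60.4 Mb in the WT lists. Per 100 Mb only *Acta2* stayed lower (-0.66, adjusted p = 0.0106), *Cnn2* turned higher (0.42, adjusted p = 0.0111) and the all-gene median became 0.18, with 2234 genes lower and 4940 higher against 6060 and 14 before scaling. Without DKO day 6 replicate 3 none of the 9 genes passed, *Acta2* coming closest (-0.81, adjusted p = 0.0515). The genotype difference at day 6 was lower than that at day 0 for 5 genes, against 50.8% of all genes, and the change from day 6 to day 9 was higher in DKO cells for 4 genes, against 38.5% of all genes. These directions depended on the scaling. Per 100 Mb, the first difference stayed lower for *Acta2* (-0.75, adjusted p = 0.0467), was higher for *Cnn2* (0.52, adjusted p = 0.0353) and was 0.17 for *Tpm1*, 0.04 for *Actn1* and 0.24 for *Srf*, and none of the 4 genes passed for the second.

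H3K27ac over these genes was spread over 79 merged regions (peaks of any library joined where they overlap), of which 28 had a peak in at least 8 libraries and 34 in 1 library. A gene-start region was found for all genes except *Cnn1*. It held a peak in all 24 libraries at *Cnn2*, *Actn1* and *Srf*, in 23 at *Tpm1*, 22 at *Acta2*, 21 at *Myl9*, 19 at *Tagln* and 18 at *Tpm2*. The libraries without one were all of days 3 and 6, and the *Tagln* start had a peak in 0 of 3 DKO day 6 libraries but in 3 of 3 WT ones. The *Cnn2* start region (chr10:79982316-79990512) had its strongest summit at -3200 bp, and its acetylation cannot be told apart from that of *Tmem259*. At the *Acta2* start (chr19:34252994-34256763) the fold over background of the strongest peak was 12.9 to 13 in WT and 10.1 to 17.8 in DKO libraries at day 0. It was 4.71 to 6.44 at WT day 6, and 1 of 3 DKO libraries had a peak there, with a fold of 5.47. At day 9 it was 5.61 to 8.85 in WT and 7.88 to 11.1 in DKO libraries. *Cnn1* had its most frequent region upstream, with the summit at -3208 bp from the start (chr9:22095739-22096410), with peaks in 17 libraries.

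The CArG box, taken strictly as CC, 6 letters A or T, and GG, on either strand, was searched in the RefSeq promoters (GRCm38.p6, 250 bases before to 50 after the start), which held 8 of the 9 genes. It was present in 3 of the 8, *Myl9*, *Cnn2* and *Srf*, and in 1.63% of all 32851 promoters. A strict match does not cover every known CArG box, and a match is not a bound site. The parts of these promoters upstream of all annotated exons are shown on the strand of the gene, 5′ to 3′, with the matches in capitals. They are chr2:156775214-156775419 (*Myl9*, plus strand), chr10:79988350-79988583 (*Cnn2*, plus strand) and chr17:46556176-46556412 (*Srf*, minus strand).
Myl9 promoter: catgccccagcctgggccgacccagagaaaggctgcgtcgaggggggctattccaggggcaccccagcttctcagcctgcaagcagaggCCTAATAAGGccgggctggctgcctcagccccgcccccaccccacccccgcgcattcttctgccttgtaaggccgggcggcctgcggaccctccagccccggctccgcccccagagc
Cnn2 promoter: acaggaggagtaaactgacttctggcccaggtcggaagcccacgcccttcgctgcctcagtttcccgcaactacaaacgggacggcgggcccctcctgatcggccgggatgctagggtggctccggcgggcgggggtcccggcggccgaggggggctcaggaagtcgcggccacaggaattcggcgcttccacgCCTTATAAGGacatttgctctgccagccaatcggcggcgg
Srf promoter: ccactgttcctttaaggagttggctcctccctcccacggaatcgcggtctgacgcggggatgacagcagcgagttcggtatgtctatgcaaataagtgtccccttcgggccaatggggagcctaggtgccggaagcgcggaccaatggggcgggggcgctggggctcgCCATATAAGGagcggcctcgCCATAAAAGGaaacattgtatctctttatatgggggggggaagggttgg

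Of these 3 genes, *Myl9* and *Cnn2* fell between days 0 and 3 in both genotypes and *Srf* fell in DKO cells. The searched genes without a match, *Acta2*, *Tpm1*, *Tpm2*, *Actn1* and *Cnn1*, fell in both genotypes as well. Of all genes 10.7% (WT) and 50.6% (DKO) were called lower. Per 100 Mb the DKO change was -2.63 for *Myl9* (adjusted p = 4.15e-05), while *Cnn2* (-0.0021) and *Srf* (0.12) did not pass. Of the genes without a match, *Acta2*, *Tpm1*, *Tpm2* and *Actn1* passed on that scale in DKO cells, and *Cnn1* did not (-0.51, adjusted p = 0.189). The WT change of *Srf* did not pass the threshold, and its difference from the DKO change did not pass either (-0.33 ± 0.33, adjusted p = 0.486). Relative to the RefSeq start, the centres of the matches lay at -156 in *Myl9*, at -51 in *Cnn2*, and at -77 and -57 in *Srf*.

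Of the 79 regions, 22 had a peak in all 6 day 0 libraries. Of these, 3 had no peak in any of the 12 libraries of days 3 and 6, against 4.74% of the 31329 such regions of the genome. They lay within *Acta2*, *Myl9* and *Actn1*, and all 3 had peaks again in some day 9 libraries, as did 582 of the 1484 such regions of the genome. The *Acta2* region (chr19:34244343-34245309, 11079 bp into the gene) had a fold of 4.48 to 6.29 in WT and 3.61 to 4.64 in DKO libraries at day 0, and a peak in 1 of 3 libraries of each genotype at day 9. The *Myl9* region, in an intron (chr2:156776977-156777830), had folds of 5.87 to 8.49 and 5.14 to 5.79 at day 0 and returned in 1 of 3 libraries of each genotype. The intronic *Actn1* region (chr12:80246167-80247573) had folds of 3.27 to 4.23 and 4.26 to 5.55, and returned in 2 of 3 libraries of each genotype. A further region, in another *Actn1* intron (chr12:80208393-80209193), had a peak in all 6 day 0 libraries, in 2 WT libraries at day 3, in no DKO library of day 3, in no library of day 6, and in 2 of 3 libraries of each genotype at day 9. It is shown with the other 3 because its summit window held the only CArG match among the regions with peaks in at least 8 libraries.

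These 4 windows are the 201 bases centred on the strongest summit (mm10, GRCm38 reference), on the strand of the gene, all outside annotated exons. Matches to the CArG box, to the AP-1 motif (TGACTCA or TGAGTCA) and to the TEAD motif (GGAATG), on either strand, are in capitals. The windows are chr19:34244411-34244611 (*Acta2*, minus strand), chr2:156777480-156777680 (*Myl9*, plus strand), chr12:80246800-80247000 and chr12:80208495-80208695 (*Actn1*, minus strand).
Acta2 +11079: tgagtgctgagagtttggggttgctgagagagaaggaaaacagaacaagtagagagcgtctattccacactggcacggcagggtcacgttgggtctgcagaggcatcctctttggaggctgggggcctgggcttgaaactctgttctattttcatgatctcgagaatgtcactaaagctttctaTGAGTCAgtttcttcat
Myl9 +2160: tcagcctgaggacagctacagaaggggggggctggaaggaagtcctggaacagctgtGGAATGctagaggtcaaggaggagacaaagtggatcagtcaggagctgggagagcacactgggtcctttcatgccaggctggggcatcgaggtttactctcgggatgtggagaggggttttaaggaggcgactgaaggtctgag
Actn1 +13471: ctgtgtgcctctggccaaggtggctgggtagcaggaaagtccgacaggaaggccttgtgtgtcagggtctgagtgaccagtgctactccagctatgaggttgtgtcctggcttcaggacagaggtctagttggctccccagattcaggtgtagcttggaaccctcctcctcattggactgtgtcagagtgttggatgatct
Actn1 +51776: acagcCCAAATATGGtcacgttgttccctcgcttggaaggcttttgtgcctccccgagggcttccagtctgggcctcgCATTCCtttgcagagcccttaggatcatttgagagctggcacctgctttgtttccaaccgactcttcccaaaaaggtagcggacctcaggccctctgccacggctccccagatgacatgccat

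The *Acta2* window held 1 AP-1 match, the *Myl9* window 1 TEAD match, the first *Actn1* window none of the motifs, and the second 1 CArG and 1 TEAD match. Over all 79 regions, CArG was found in 2.53% of the windows, AP-1 in 2.53% and TEAD in 12.7%. In the 169358 merged regions of the genome the shares were 0.968%, 3.45% and 11.5%.

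Whether regions were called more often in one genotype could hardly be tested with 3 libraries per group. An exact conditional test within days on the regions with peaks in 3 to 21 libraries called 0% of 71228 regions, with 3759 at an unadjusted p under 0.05 and 0 among the 28 tested regions of these genes. Given the calls per day, the smallest p these 28 regions could reach was between 0.0002 and 1, and above 0.05 for 17 of them, so the absence of calls does not show that the regions were alike. The smallest p was that of a region within *Tpm2* (chr4:43519494-43520064), with a peak in 3 of 3 WT and 0 of 3 DKO libraries at day 0 and in 1 WT library at day 9 (exact p = 0.05, adjusted p = 0.662). *Actn1* held a pair of intronic regions (chr12:80202314-80203678 and chr12:80214914-80219884) with an exact p of 0.08 each (adjusted p = 0.662). The first had peaks in 2 of 3 WT and 0 of 3 DKO libraries at both day 3 and day 6, and in all libraries of days 0 and 9.

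**Figure D4:**
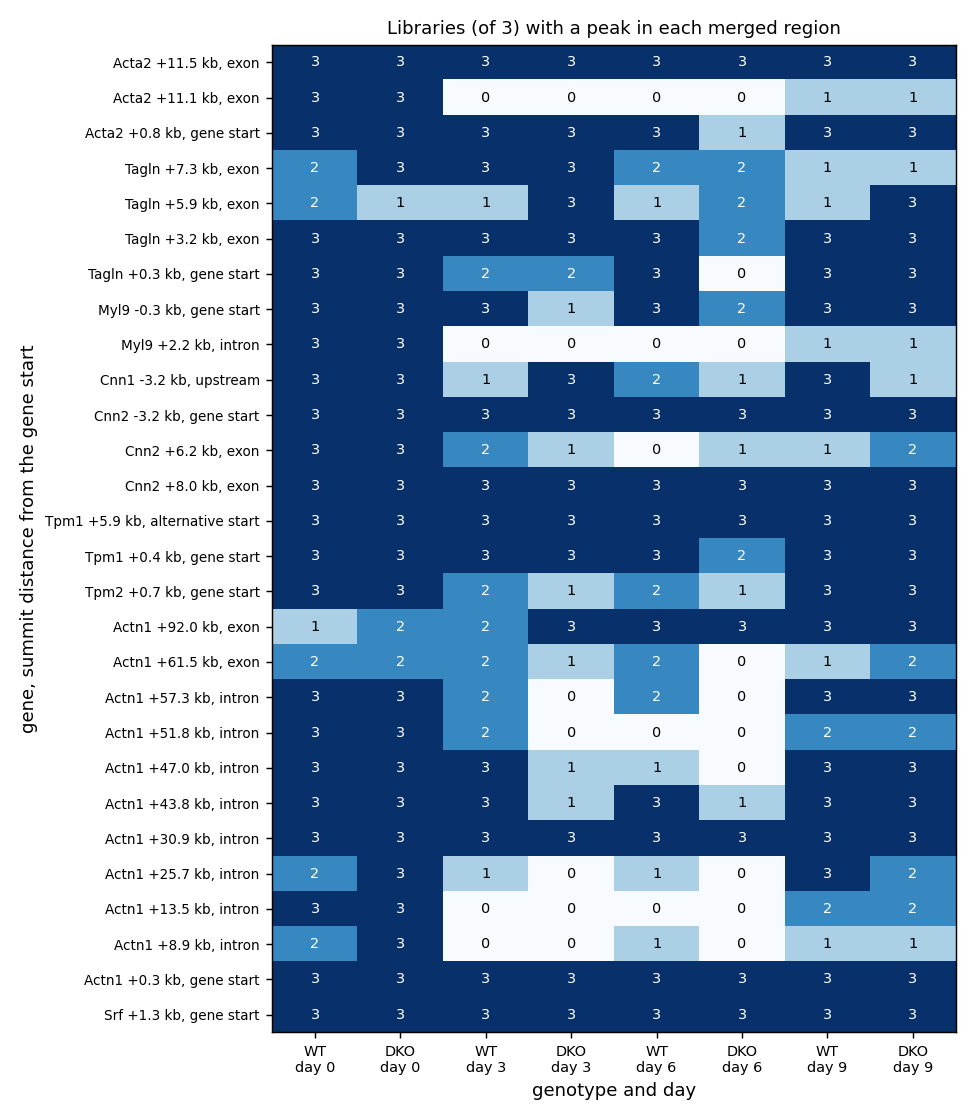
Number of libraries (0 to 3, white to dark blue) with a peak in each merged region with peaks in at least 8 libraries, by genotype and day (x axis), with gene, distance of the strongest summit from the gene start and place (y axis). Regions at the starts of *Cnn2*, *Actn1* and *Srf* have 3 of 3 in every group, and those of *Acta2* at +11.1 kb and of *Myl9* at +2.2 kb have 0 at days 3 and 6.

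The strength of the strongest peak gives a measure that does not depend on covered length. It was ranked by q among all peaks of its own library, as a percentile. *Actn1* and *Cnn2* stayed in the top of their libraries throughout, at a percentile of 89.3 to 99.4 and 89.5 to 99.3. The *Cnn2* window also meets *Tmem259*, so its percentile cannot be assigned to *Cnn2* alone. *Acta2* went from 93 ± 0.617 at WT day 0 to 71.3 ± 6 at day 3, 59.3 ± 5.23 at day 6 and 76.5 ± 6.08 at day 9. In DKO cells it went from 92.7 ± 3.95 to 62.2 ± 15, 27.1 ± 31.2 and 79.8 ± 5.72. In both genotypes the mean covered length and the mean percentile of *Acta2* were lowest at day 6. *Tpm2* went from 86.1 ± 3.53 to 17.9 ± 16.5 and 32 ± 27.8 in WT cells and from 78.3 ± 4.45 to 7.02 ± 12.2 and 12.3 ± 21.3 in DKO cells at days 0, 3 and 6, with 70.7 ± 6.13 and 71 ± 6.26 at day 9. A library without a peak counts as 0, and the rank also depends on the length of the list, which was 47448 to 74867 peaks in the DKO and 98503 to 105511 in the WT libraries of day 6. By the exact permutation test within days, the genotype difference in this percentile passed the threshold at none of the 9 genes, against 3.48% of all genes. With so low a share, the absence of calls among 9 genes does not show that the genotypes were alike. *Tpm1* had an unadjusted p under 0.05, with 91.5 in WT and 85.4 in DKO cells averaged over days (exact p = 0.00489, adjusted p = 0.0765). Its libraries at day 6 lay at 83.9 to 89.1 in WT and 54 to 82.4 in DKO cells.

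**Figure D5:**
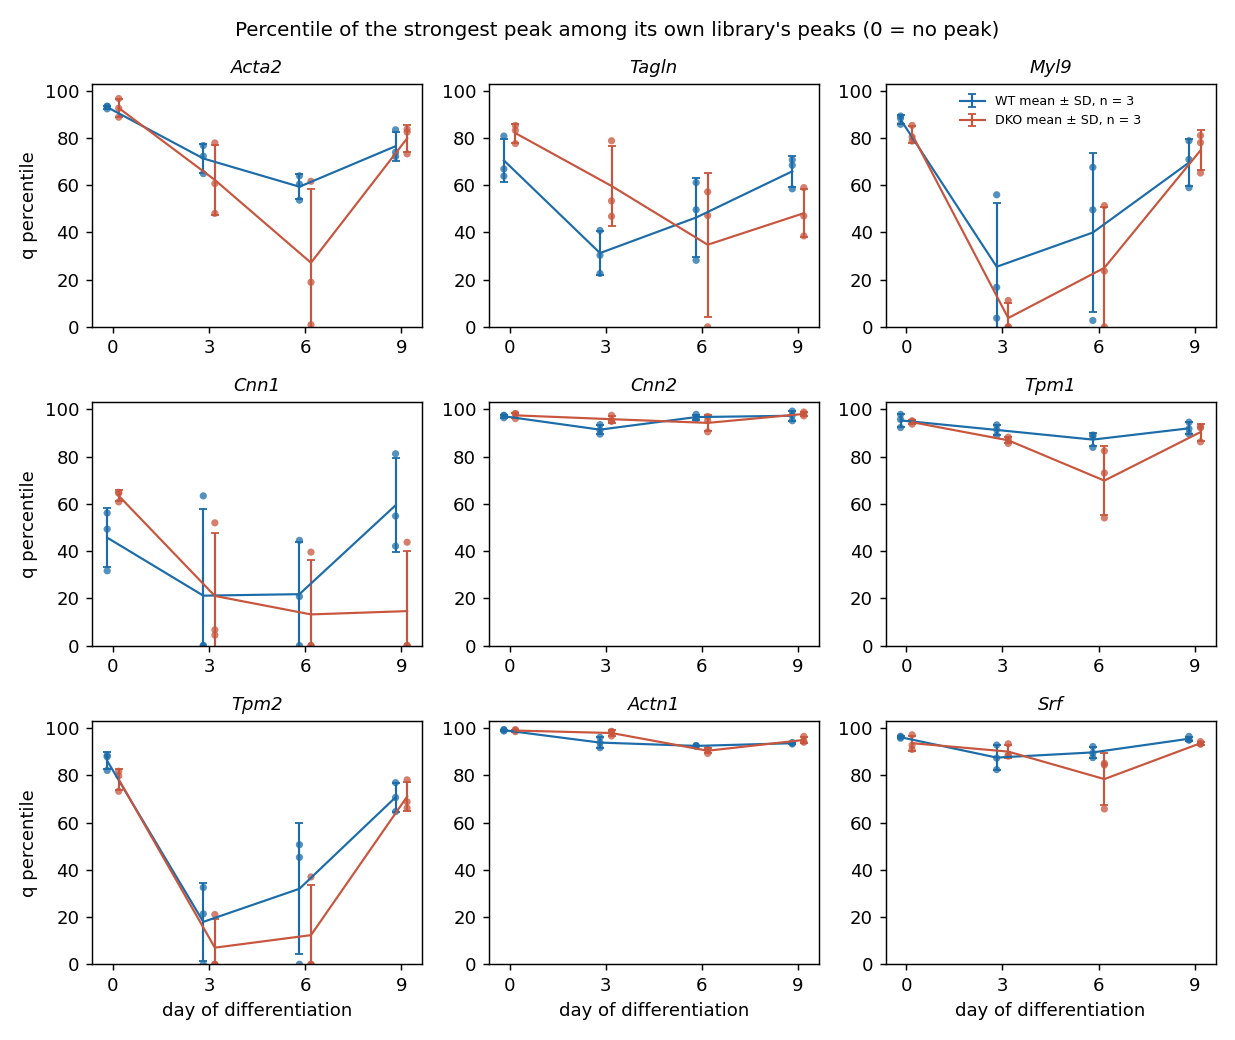
Percentile of the strongest peak of each gene by q among the peaks of its own library (y axis, 0 where no peak was called) by day, with 1 point per library and lines at mean ± SD of 3 WT (blue) or 3 DKO (red) libraries. *Actn1* and *Cnn2* stay above 89, whereas *Acta2*, *Myl9* and *Tpm2* dip at days 3 and 6. *Tagln* does so in WT cells, while its DKO means are 82, 59.7, 34.8 and 48.1 by day.

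The surrounding pathway was described with 40 further genes, of which 37 passed the filter. They are other actins, tropomyosins, myosin chains and kinase, calponin relatives, thin filament regulators, cross-linking and adhesion proteins, the SRF cofactors and the RhoA and ROCK genes. Between days 0 and 3, 12 of the 37 fell and 0 rose in WT cells, with a median of -0.51 (32.4% of the list and 10.7% of all genes fell). The decreases of largest size were *Lmod1*, encoding the actin nucleator leiomodin (-2.28 ± 0.30, adjusted p = 1.97e-05), *Fhl2*, encoding a LIM-domain cofactor (-2.12 ± 0.34, adjusted p = 0.000175), *Synpo2* (-1.83 ± 0.34, adjusted p = 0.000746), *Mylk*, encoding the myosin light chain kinase (-1.55 ± 0.25, adjusted p = 0.00018), and *Csrp1* (-1.38 ± 0.27, adjusted p = 0.0013). In DKO cells 28 of 37 fell and 0 rose (75.7% against 50.6% of all genes, median -0.97), and per 100 Mb 17 fell and 7 rose. Of 3 other actins none fell in WT cells and *Actg1* fell in DKO cells (-0.60 ± 0.15, adjusted p = 0.00231). Between days 6 and 9, 3 of 37 rose in WT cells (8.11% against 0.902%) and 34 in DKO cells (91.9% against 61.6%). Per 100 Mb, 9 rose and 1 fell in WT cells, and 13 rose and 7 fell in DKO cells. The all-gene median on that scale was 0.01 in WT and -0.13 in DKO cells. At day 6, 22 of 37 were lower in DKO than in WT cells, among them *Fhl2* (-2.31 ± 0.34, adjusted p = 7.92e-05), and 0 were higher (59.5% lower, against 39.9% of all genes). Per 100 Mb, 7 were lower and 10 higher, so that the direction of this list at day 6 depended on the scaling.

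Of the SRF cofactor list, *Myocd* and *Mrtfa* moved in opposite directions between days 0 and 9. Between days 6 and 9 in DKO cells all 4 genes of the list were called higher, as were 61.6% of all genes. *Myocd*, encoding myocardin, had few peaks before day 9. WT libraries held at most 0.161 kb on day 0, 0.431 kb on day 3 and 0.16 kb on day 6, and DKO libraries at most 0.346 kb on day 0 and none on days 3 and 6. The day 9 libraries held 0.773 to 1.53 kb (WT) and 0.537 to 0.78 kb (DKO), and the gene rose from day 0 in both (1.60 ± 0.22, adjusted p = 1.23e-05, and 0.94 ± 0.22, adjusted p = 0.00239). *Mrtfa*, encoding the actin-sensing cofactor, was lower at day 9 than at day 0 in both (-1.20 ± 0.38, adjusted p = 0.023, and -1.43 ± 0.38, adjusted p = 0.00525). *Tgfb1i1*, encoding the LIM protein Hic-5, fell between days 0 and 3 by 1.13 ± 0.13 in WT cells (adjusted p = 5.74e-06) and by 1.70 ± 0.13 in DKO cells (adjusted p = 5.76e-09), and rose again between days 6 and 9 by 0.71 ± 0.13 (adjusted p = 0.00536) and 1.42 ± 0.13 (adjusted p = 2.24e-07). From day 0 to day 9 as a whole, 4 of 37 fell and 2 rose in WT cells and 4 fell and 4 rose in DKO cells. The share that fell, 10.8% in each, lay near the 8.84% (WT) and 14.1% (DKO) of all genes. The counts that rose stand without a share of all genes. The 95th percentile of this change over all genes was 1.17 in WT and 1.30 in DKO cells. No gene of the 37 passed the test of a genotype difference in that change.

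The protein-coding genes whose coverage over the 24 libraries was most like the mean standardised profile of the 9 genes were *Cpxm2* and *Cd81* (Pearson r = 0.983 each), *Arhgef10l* and *2310022B05Rik* (0.982 each) and *Arhgef17* (0.981). These values are descriptive, since all libraries share their peak totals. Among the 9 genes themselves, *Tpm1* was nearest to the mean profile (r = 0.989) and *Cnn1* farthest (0.848).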

How the data were processed

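H3K27ac ChIP-seq peak lists of 24 libraries were used, while the 16 inputs were not analysed here. Per the labels, the authors processed the reads with bcl2fastq 2.17, cutadapt 1.18, BWA 07.17 and MACS2 2.1.1.20160309 on mm10, and called peaks in each library separately. Which input served as control is not given in the sources used here. The deposited lists give the fold over background (a ratio), the −log10 p and q values and a display score of each peak. Fold, −log10 q and positions were used here. Peaks were merged within a library and intersected with each protein-coding gene plus 5 kb upstream, giving covered kb. Genes with a peak in at least 3 libraries were fitted over all 24 libraries on log2(kb + 0.5) with limma 3.58.1 in R 4.3.3, and p-values were adjusted over all genes tested (Benjamini-Hochberg, threshold 0.05). Exact permutation tests, two-sided, relabelled genotypes within days. Other steps used Python 3.11.15, numpy 2.4.6 and pandas 2.3.3. The scripts were tested on simulated data. The comparisons of day 3 with day 0, day 6 with day 3 and day 9 with day 6, and the genotype differences in the changes from day 0 to day 6 and from day 6 to day 9, were added after values had been seen. The members and lists were chosen with earlier results of these data known. The 9 genes are always named, and of the other genes up to 5 per direction by size of change among those past the threshold, with *Actg1* and *Tgfb1i1* named after their values were seen. Alternatives were stricter or equal numbers of peaks, summit windows, other gene windows, scaling to 100 Mb under peaks, other filters, pseudocounts and scales, left-out libraries and a replicate block.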

Additional observations from a re-analysis of the deposited data

Results flagged for a closer look

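In 9 instances the change between days differed between DKO and WT cells by limma's test of the difference itself (adjusted over all genes). From day 0 to day 6 the DKO change was lower than the WT change by a log2 difference of -1.35 ± 0.36 for *Acta2* (adjusted p = 0.0071), -1.17 ± 0.37 for *Actn1* (adjusted p = 0.0162), -0.96 ± 0.35 for *Tpm1* (adjusted p = 0.029), -0.85 ± 0.33 for *Srf* (adjusted p = 0.0389) and -0.66 ± 0.23 for *Cnn2* (adjusted p = 0.026). The same test called 50.8% of all genes lower, near the share among the 9 genes. The median difference was -0.74 for the 9 genes and -0.70 for all genes. From day 6 to day 9 the DKO change was higher by 1.14 ± 0.36 for *Acta2* (adjusted p = 0.0213) and by 0.95 each for *Myl9* (adjusted p = 0.0471), *Tpm1* (adjusted p = 0.0372) and *Actn1* (adjusted p = 0.0488), as for 38.5% of all genes. The median of that second difference was 0.86 for the 9 genes and 0.63 for all genes. The 2 sets share the day 6 libraries. Without DKO day 6 replicate 3, 1 and 0 of the 9 genes were called. Per 100 Mb under peaks the directions held only in part. From day 0 to day 6 *Cnn2* (0.52, adjusted p = 0.0353), *Srf* (0.24), *Tpm1* (0.17) and *Actn1* (0.04) turned positive and *Acta2* stayed lower (-0.75, adjusted p = 0.0467). From day 6 to day 9 *Tpm1* (-0.04) and *Actn1* (-0.14) turned negative. *Acta2* (0.68, adjusted p = 0.0723) and *Myl9* (0.76, adjusted p = 0.356) stayed positive there without passing.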

How the results depend on the processing

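The lists carry no read totals, so depth could not be set beside the values, and only 3 libraries stand behind each group. In the alternatives run, no gene of the 9 was called between genotypes over all days, in strongest peak or in the day 0 to day 9 change, and no region of these genes was called in a test that could hardly reach a call. Genes called lower in DKO cells at day 6 numbered 5, but 0 among the 20000 strongest peaks, 1 within 250 bp of summits, 1 per 100 Mb, 0 without DKO day 6 replicate 3 and 0 without the log scale (without each replicate number in turn, 0 to 6). At day 9 the 20000 strongest peaks gave 1 gene against 0. From day 0 to day 3, 8 WT and 9 DKO genes became 5 and 5 with the 20000 strongest peaks, 3 and 3 within 250 bp of summits, and 5 in DKO cells per 100 Mb (leaving out a replicate number, 5 to 8 and 7 to 9). From day 6 to day 9 the WT count of 0 became 1 at −log10 q of at least 5, 5 per 100 Mb, and 1 without WT day 3 replicate 3, without DKO day 0 replicate 2 or without the log scale. The DKO count of 8 became 3 with the 20000 strongest peaks and 5 within 250 bp (8 to 8 leaving out a replicate number). From day 0 to day 9 the WT count of 2 became 4 with the 20000 strongest peaks, 0 within 250 bp, 4 per 100 Mb, 1 with no filter on genes, 1 with a pseudocount of 0.1 kb, 5 without the log scale, 4 without WT day 3 replicate 3, 4 without DKO day 0 replicate 2 and 5 without DKO day 6 replicate 3 (0 to 1 leaving out a replicate number). The DKO count of 3 became 5, 1 within 250 bp, and 6 without the log scale. The genotype difference from day 0 to day 6, with 5 genes, gave 0 with the 20000 strongest peaks, 0 within 250 bp, 1 per 100 Mb, 3 with no filter, 1 without DKO day 0 replicate 2, 1 without DKO day 6 replicate 3 and 3 without the log scale (0 to 3 leaving out a replicate number). That from day 6 to day 9, with 4 genes, gave 1, 0, 0 and 1 under the first 4 of these, 0 without DKO day 6 replicate 3 and 1 without the log scale (0 to 5).

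Signs turned within 250 bp of summits for *Cnn2* at day 6 (0.19), from day 0 to day 3 (0.16 in WT, 0.22 in DKO) and from day 6 to day 9 in DKO cells (-0.34), and for *Srf* from day 0 to day 3 in DKO cells (0.01). Per 100 Mb they turned for *Cnn2* at day 6 (0.42) and from day 6 to day 9 in DKO cells (-0.02), and for *Srf* from day 0 to day 3 in DKO cells (0.12). The genotype difference from day 0 to day 6 turned for *Acta2* with the 20000 strongest peaks (0.38), within 250 bp for *Cnn2* (0.58) and *Tpm1* (0.07), and per 100 Mb for *Cnn2* (0.52), *Tpm1* (0.17), *Actn1* (0.04) and *Srf* (0.24). That from day 6 to day 9 turned for *Myl9* with the 20000 strongest peaks (-0.22) and per 100 Mb for *Tpm1* (-0.04) and *Actn1* (-0.14). The cause was not tested.

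Counts over all genes moved too, from 6060 to between 579 and 7830 for day 6, from 438 to 35 to 1362 for day 0, from 46 to 3 to 856 for day 3, from 283 to 20 to 832 for day 9, from 23 to 0 to 2260 over days and from 528 to 0 to 646 for the strongest peak. For the changes between days they were 1630 (426 to 2257) and 7684 (1592 to 8180) from day 0 to day 3, 137 (26 to 555) and 9350 (1117 to 10636) from day 6 to day 9, and 1342 (534 to 2497) and 2143 (882 to 2781) from day 0 to day 9, in WT and DKO cells. The genotype differences in these changes called 75 (0 to 227) for day 9 against day 0, 7712 (364 to 8376) for day 6 against day 0 and 5844 (149 to 8138) for day 9 against day 6.

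Same-numbered libraries were treated as sharing only a number, since the labels give them no common origin and not every pair correlated over 0.1 in its deviations from the group means. The correlations were -0.177 to 0.263 across genotypes (4 of 12 pairs over 0.1) and -0.152 to 0.241 within a genotype (6 of 36 pairs). With the replicate number as a block, 5 genes were called at day 6 and 4 from day 0 to day 9 in WT cells against 2, and the other counts of called genes among the 9 were equal to those without the block.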
